A study of Saccharomyces cerevisiae with 6 samples.

Results

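Budding yeast carrying a 7S-A form of Spt6 (spt6-7SA) was compared with a wild type (WT) after a shift to 39 °C, using every library that the labels assign to these groups, 4 of the 6 in the series. The other 2 libraries come from a casein kinase 2 mutant (ck2ts) and are used where the spt6-7SA changes are set against it. All cultures were grown at 30 °C in YPD until OD600 reached 0.5, then kept at 39 °C for 2 h. Each group has 2 libraries, and the labels do not say whether these are separate cultures, so p-values measure only the spread between these libraries, which may be technical. Sense reads in annotated exons ranged from 58157852 to 83375420 per WT library and from 64198311 to 64305808 per spt6-7SA library.

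The WT strain YAN1104 is mating type a and carries leu2D1, lys2-128d, bar1D::NAT and a galactose-driven FLAG-HHT1 construct with URA3 at ura3-52. The ck2ts strain YAN1105 is labelled with the same markers plus cka1Δ0::KanMX6 and a cka2 D225N allele marked with NAT. The spt6-7SA strain YAN1116 is also mating type a with leu2D1 and lys2-128d, but has bar1D::KanMX6, his3D200, ura3Δ0 and a MYC-tagged IWS1 (SPN1) marked with HIS3. Its chromosomal SPT6 is deleted (spt6D::kanMX6), and FLAG-tagged spt6 7S-A comes from the plasmid pcc11, which is centromeric and marked with URA3. It therefore lacks the histone construct of the other 2 strains, and the effects of the Spt6 form, its plasmid source and these markers cannot be told apart.

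Spt6 is an essential histone chaperone that travels with RNA polymerase II and puts nucleosomes back behind it. Yeast cells with defective Spt6 are known for transcription that starts inside genes, for antisense transcription, and for loss of repression at promoters that an upstream transcript covers. Casein kinase 2 is a protein kinase with many substrates, Spt6 among them.

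The altered genes were looked at first. SPT6 was at 386 and 346 CPM (sense read counts relative to library sizes, which were scaled by the trimmed mean of M values) in WT and at 511 and 423 in spt6-7SA, where the plasmid supplies it. The groups did not overlap, and the log2 fold change was 0.35 (SE 0.12, adjusted p = 0.047). Adjusted p-values here are from edgeR's quasi-likelihood test with Benjamini-Hochberg adjustment over all genes tested. Read counts cannot tell the 7S-A form from the normal one. HIS3 changed by -2.80 on the log2 scale in the strain with his3D200, URA3 by 0.88 and the tagged SPN1 by -0.36. STE2, an a-cell gene, stood at 156 to 354 CPM in WT and spt6-7SA and MF(ALPHA)1, an alpha-cell gene, at 1.03 to 4.62, and all 3 strains are labelled mating type a. All 3 are also labelled leu2D1 and lys2-128d, but the ck2ts libraries differ from the others at both loci. LEU2 sense counts were 3713 and 3193 for WT, 3161 and 3338 for spt6-7SA, but 1 and 4 for ck2ts. The 5' part of LYS2 held 43.4% and 36.1% of its sense reads for WT, 39.5% and 33.2% for spt6-7SA, but 12.6% and 9.9% for ck2ts. These reads go against the shared labels, and in every comparison with ck2ts such differences between the strains cannot be told apart from the ck2ts mutations.

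SER3, which encodes the first enzyme of serine synthesis, rose most of all protein-coding genes that met the naming rule. Its promoter is covered by SRG1, a non-coding transcript whose passage keeps SER3 silent when serine is plentiful. The 300 bases that end 101 bases before the SER3 start codon all lie inside the annotated SRG1 and are shown because repression by SRG1 acts there.
SER3 (chrV:322286-322585, plus strand): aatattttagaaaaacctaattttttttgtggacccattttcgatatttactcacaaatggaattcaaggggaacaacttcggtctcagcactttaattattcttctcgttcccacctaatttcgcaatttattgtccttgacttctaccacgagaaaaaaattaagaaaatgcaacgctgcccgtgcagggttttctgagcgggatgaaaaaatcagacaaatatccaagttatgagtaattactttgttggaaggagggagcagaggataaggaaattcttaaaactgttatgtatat
SER3 was at 90.4 and 93.4 CPM in WT and at 1227 and 1182 in spt6-7SA. The groups did not overlap, and the log2 fold change was 3.71 (SE 0.16, adjusted p = 5.59e-05). In ck2ts the libraries were at 337 and 256 CPM. SRG1 itself was at 48.2 and 39.6 CPM in WT and at 64.3 and 54.8 in spt6-7SA, a log2 change of 0.44 (SE 0.13, adjusted p = 0.0255). SRG1 and SER3 share 77 annotated bases on the same strand, so reads from those bases count for both. They lie at the 3' end of SRG1, whose 3' part held 8.81% and 12.9% of its counts for WT, but 39.9% and 37.7% for spt6-7SA. Outside that part SRG1 was at 44 and 34.5 CPM in WT and at 38.6 and 34.1 in spt6-7SA, and these values overlap. Of the 7 genes listed as repressed through Spt6, 3 passed as higher (42.9%, against 26.7% of all genes tested) and none as lower. They were SER3, CYC1 (a cytochrome c, log2 1.66) and ADY2 (an acetate transporter, log2 1.32). In ck2ts 4 of the 7 passed as higher and 2 as lower, with a median log2 change of 0.42, against 0.25 in spt6-7SA. In bulk cultures such as these, more cells expressing a gene and more RNA per cell cannot be told apart.

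Across all genes, 1809 of 6778 tested passed as higher in spt6-7SA than in WT (26.7%) and 1633 as lower (24.1%), at an adjusted p of 0.05. At least 2-fold changes were fewer, 529 higher and 220 lower. The higher count was 1185 without WT replicate 1 and 1193 without spt6-7SA replicate 1, and the lower count was 1055 and 1086 without spt6-7SA replicate 1 or 2. After SER3, the largest rises were in LSO1, SSA3, SDH9, LYS1, DPI8, GND2, SSA4, ERR3, CAR1, YGP1 and GAD1. SSA3 and SSA4 encode stress-induced Hsp70 chaperones, and GND2 an enzyme of the pentose phosphate pathway. SSA3 went from 52.6 and 54.4 CPM to 381 and 341, and SSA4 from 47.4 and 60.9 to 267 and 260. CAR1, the arginase that opens arginine breakdown, went from 75.2 and 91.2 CPM to 374 and 379. GAD1, the glutamate decarboxylase, went from 50.1 and 64.1 CPM to 249 and 246. No spt6-7SA library of these genes came as low as a WT library, which the naming rule required. Of all 6778 genes tested, 2782 had both spt6-7SA libraries above WT and 2553 had both below. All 12 of these genes also passed as higher in ck2ts, where 32.5% of all genes did. ERR3 has near-identical copies, between which reads may be divided.

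The largest fall was in PHO89, which encodes a sodium-coupled phosphate transporter. PHO89 was at 232 and 161 CPM in WT and at 6.66 and 5.26 in spt6-7SA, a log2 change of -5.04 (SE 0.29, adjusted p = 0.000137), against 36.5 and 24.8 CPM in ck2ts. It was followed by KEI1, HXT2, POP8, GTR2, YHI9, YRA2, SPL2, YGR035C, VPS55, ATX1 and MRX8. HXT2, a high-affinity glucose transporter, went from 781 and 732 CPM to 109 and 104. KEI1, a component of inositol phosphorylceramide synthase, went from 36.8 and 42.9 CPM to 5.19 in both libraries. All 12 were below WT in both spt6-7SA libraries, again by the naming rule. Of these 12, 9 also passed as lower in ck2ts (32.3% of all genes), the exceptions being GTR2, YHI9 and VPS55. Of the 11 tested for antisense reads, 8 passed as higher on that strand, as did 31.9% of all genes tested there.

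**Figure D1:**
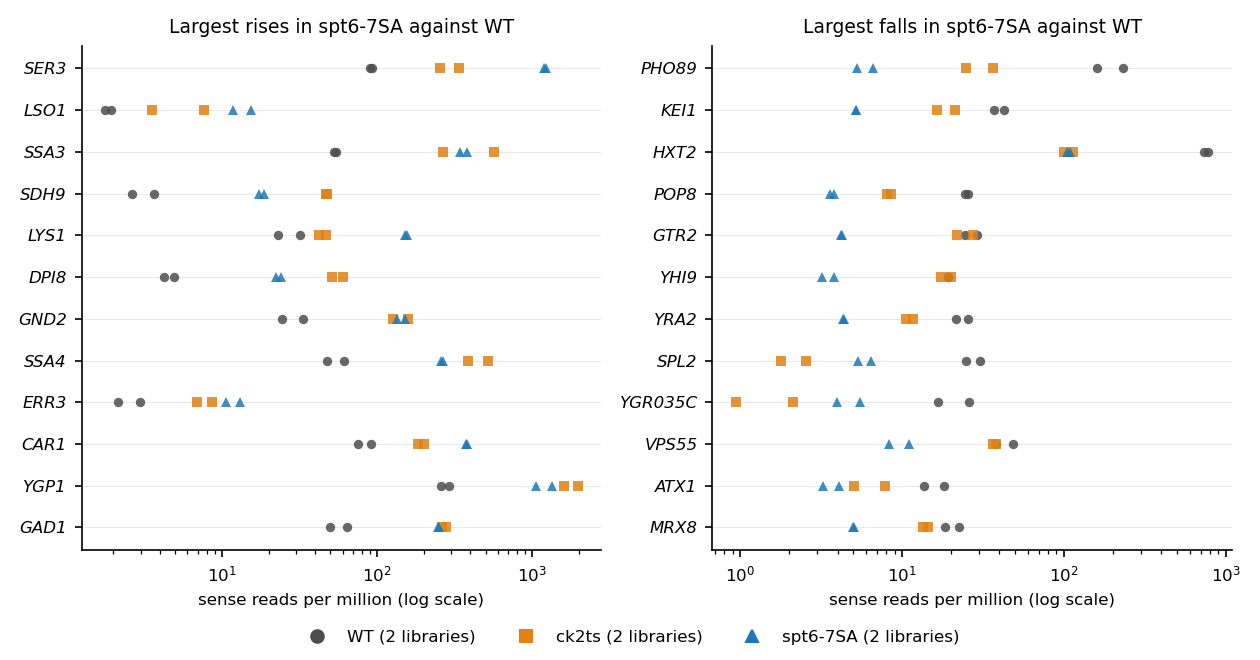
Sense CPM (log axis) of the 12 protein-coding genes with the largest rises (left) and falls (right) in spt6-7SA against WT. Each point is 1 library. In both panels the spt6-7SA libraries lie outside the range of the WT libraries, which the naming rule required. SER3 goes from 90.4 and 93.4 in WT to 1227 and 1182, and PHO89 from 232 and 161 to 6.66 and 5.26.

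Stress and chaperone genes rose together. Of 35 targets of the general stress factors Msn2 and Msn4, 30 passed as higher and none as lower, with a median log2 change of 1.23 against 0.02 over all genes tested. SPI1, a cell wall protein of stressed cells, changed by 1.95, and CTT1, the cytosolic catalase, by 1.87. CTT1 went from 9.11 and 12.1 CPM to 40.5 and 36.6, and stood at 243 and 209 in ck2ts. Of 31 chaperone genes under the heat shock factor Hsf1, 19 passed as higher and 1 as lower (median 0.92). HSP82, one of the Hsp90 genes, changed by 1.74 on the log2 scale, its cochaperone CPR6 by 1.63 and the Hsp40 gene SIS1 by 1.19. HSP104, the disaggregase, was at 284 and 433 CPM in WT and 811 and 773 in spt6-7SA. Of 34 proteasome genes, 19 passed as higher and none as lower (median 0.28), while RPN4, their transcription factor, did not pass (log2 0.06, adjusted p = 0.744). Trehalose and glycogen genes (13 higher and 2 lower of 17) and genes of autophagy and the vacuole (12 and 0 of 19) had medians of 0.81 and 0.54.

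Genes for making ribosomes fell together. Of 132 ribosomal protein genes, 126 passed as lower and none as higher, with a median log2 change of -0.70. Of 72 ribosome biogenesis genes, 70 passed as lower and none as higher (median -0.67), with DBP2, an RNA helicase gene, at -1.65 and NOP4, for assembly of the large subunit, at -1.19. RNA polymerase I genes (9 of 11 lower), translation factors (20 of 23 lower) and genes of the exosome and of Nrd1-dependent termination (15 of 21 lower) had no member that passed as higher. RNA polymerase III genes were mixed, 11 lower and 3 higher of 21. For most of these groups the median was farther from 0 in ck2ts, at -1.43 for ribosome biogenesis, -1.05 for ribosomal proteins and 2.40 for the Msn2 and Msn4 targets, values that share the WT libraries with the ones above.

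**Figure D2:**
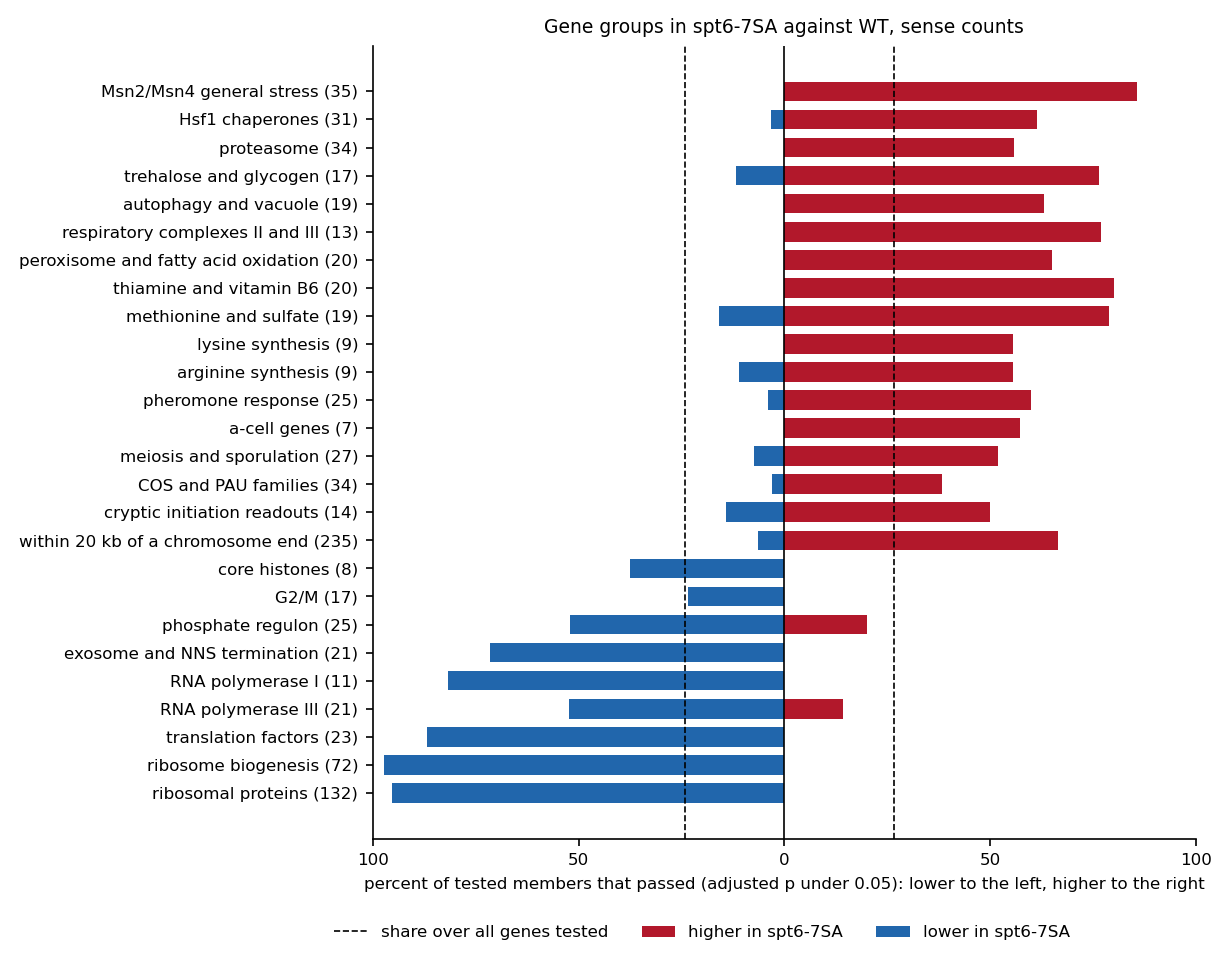
Percent of the tested members of each gene group that passed as higher (right, red) or lower (left, blue) in spt6-7SA against WT, with the number tested in parentheses. Dashed lines mark the shares over all genes tested, 26.7% higher and 24.1% lower. Stress groups extend to the right and ribosome groups to the left.

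Genes near chromosome ends were higher. Of 235 protein-coding genes within 20 kb of an end, 156 passed as higher (66.4%) and 15 as lower, with a median log2 change of 0.75. Between 20 and 50 kb the share higher was 32.2%, and farther in it was 24.9%. The COS and PAU families, which lie there and whose members are near-identical copies, had 13 of 34 higher and 1 lower. The level of a gene moved with its change too. Of the 1187 protein-coding genes with the fewest reads per kb 43.1% passed as higher and 11.3% as lower, and of the 1187 with the most 16.3% and 42.5%. The median log2 change was 0.33 for the fewest reads, against 0.41 in ck2ts, and -0.23 for the most, against -0.29 in ck2ts. The part of level in the pattern at chromosome ends was not tested.

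Genes that changed in spt6-7SA and not, or the other way, in ck2ts were defined by 3 comparisons of 1 fit. Such a gene passed against WT, passed in the same direction against ck2ts, and in ck2ts against WT did not pass or passed in the opposite direction. The comparisons of spt6-7SA share its libraries, and those against WT share the WT libraries. By this definition 368 of 6778 genes were higher (5.43%), 257 of them with no call in ck2ts and 111 opposite. Another 366 were lower (5.4%), 272 with no call in ck2ts and 94 opposite. Without spt6-7SA replicate 1 these sets held 198 and 221 genes, and the higher one held 207 without spt6-7SA replicate 2 and 230 without WT replicate 1. The median change among them was 0.65 in the higher set and -0.64 in the lower set. Of the higher genes 15.8% lay within 20 kb of a chromosome end, against 4.63% of all genes tested and 1.37% of the lower ones. In the ck2ts libraries, RNA of the mitochondrial genome also differed from WT, with 30 of 32 genes tested lower (median log2 -9.54). COX2, a subunit of cytochrome c oxidase, was not among them, at 296 and 2692 CPM in ck2ts and 167 and 163 in WT. Together, mitochondrial genes held 0.0362% and 0.319% of ck2ts sense reads, while WT had 0.241% and 0.277%. In spt6-7SA the same 32 genes had a median of 0.01, with 1 higher and 1 lower. The part of that difference in the genes set apart was not tested.

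IMD2, an IMP dehydrogenase gene of guanine nucleotide synthesis, rose most among them. IMD2 was at 48.6 and 54.9 CPM in WT, at 205 and 214 in spt6-7SA, against 31.8 and 35.8 in ck2ts. The change against WT was 2.02 (SE 0.10, adjusted p = 6.61e-05), and ck2ts moved the other way (log2 -0.61, adjusted p = 0.00125). IMD2 has close relatives in the genome, so reads may be divided among them. Next came CDA1, a chitin deacetylase of the spore wall, MAN2, DAM1, DSF1, PDC6, MET6, YSW1, YLR462W and FRM2. PDC6, a pyruvate decarboxylase isozyme gene, went from 21.7 and 28.1 CPM to 76.6 and 67.6. MAN2 and DSF1 are closely related genes and changed by 1.59 and 1.56. Of these 10 genes, 4 lie within 20 kb of a chromosome end.

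DAM1, an outer kinetochore gene, lies 484 bp to the left of SPT6, the locus deleted in this strain. DAM1 went from 23.9 and 20.7 CPM to 67.9 and 66.1. YGR117C, 284 bp to the right of SPT6, went from 50.7 and 52.4 CPM to 128 and 121 (log2 1.27, adjusted p = 0.000331). The 3' ends of both genes face SPT6. Which flanking bases the SPT6 plasmid carries is not given in the sources used here. Of the 8 genes beside URA3, HIS3, BAR1 and SPN1, 7 passed as lower, as did 24.1% of all genes tested. GEA2, beside URA3, did not pass (log2 -0.12, adjusted p = 0.363). The 7 lower genes were also below WT in both ck2ts libraries. Against ck2ts, TIM9 and DED1 passed as lower, SNL1 and YIL014C-A as higher, and RPS23B, TOM5 and MRM1 did not pass. TIM9, 240 bp from URA3, changed by -1.87, DED1, 302 bp from HIS3, by -1.76, and SNL1, beside BAR1, by -1.34. SNL1 was lower in ck2ts as well, at 8.25 and 8.59 CPM against 26.1 and 26.7 in WT.

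The largest falls apart from ck2ts were in GTR2, YHI9, VPS55, CUS2, VPS70, ATR1, TVP38, KAP120, CWH41 and PPA2. GTR2, a GTPase that signals amino acid supply to TORC1, was at 24.5 and 29.2 CPM in WT, at 4.2 and 4.25 in spt6-7SA, against 22.0 and 27.5 in ck2ts. Its change against WT was -2.67 (SE 0.15, adjusted p = 7.78e-05). VPS55, for late endosome to vacuole sorting, went from 48.3 and 37.9 CPM to 11.1 and 8.28. KAP120, a karyopherin of nuclear import, went from 171 and 172 CPM to 54.3 and 59.8. ATR1, a multidrug transporter, went from 35.6 and 36.8 CPM to 10.1 in both spt6-7SA libraries and was at 48.2 and 53.8 in ck2ts. For 9 of these 10 genes, antisense reads passed as higher than in WT, PPA2 being the exception (log2 -0.22, adjusted p = 0.541). Among all genes lower apart from ck2ts, antisense passed as higher in 187 of 317 tested (59.0%). Among those higher apart from ck2ts it did so in 85 of 284 (29.9%), and over all genes tested for antisense in 31.9%. The difference between the 2 sets was not tested.

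**Figure D3:**
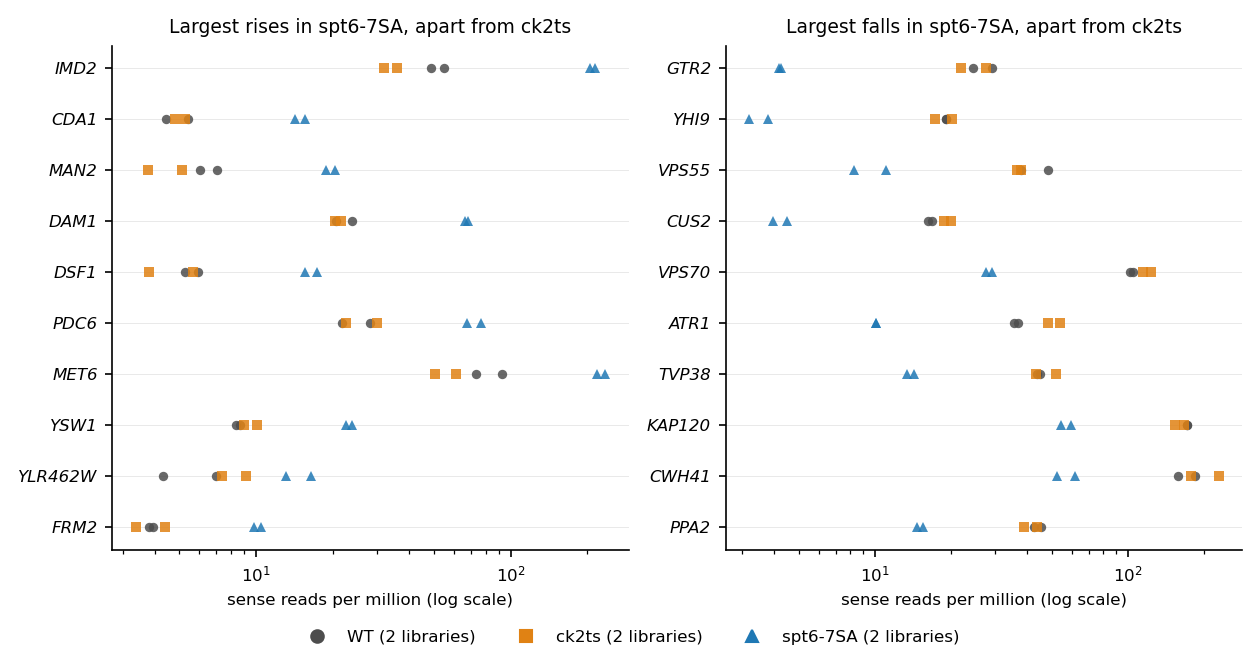
Sense CPM (log axis) in every library for the 10 largest rises (left) and falls (right) that met the definition of changes apart from ck2ts. For all genes drawn, the spt6-7SA libraries (triangles) lie outside the range of WT (circles), which the naming rule required, and of ck2ts (squares). For GTR2 the spt6-7SA libraries stand at 4.2 and 4.25 and the lowest other library at 22.0.

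Genes of methionine synthesis and sulfate uptake had 15 of 19 members higher and 3 lower (median 0.83), and 5 of the higher ones were apart from ck2ts. MET6, the methionine synthase, was at 73.4 and 92.2 CPM in WT, 235 and 219 in spt6-7SA, against 61.1 and 50.3 in ck2ts. MET17, which joins sulfide to homoserine, went from 54.0 and 55.8 CPM to 125 and 116, and was at 41.9 and 42.2 in ck2ts. MUP1, the methionine permease, went from 43.1 and 49.1 CPM to 88.5 and 99.6. MET13 and MET3 completed the 5, at log2 1.04 and 0.57. MET22, a phosphatase that removes a by-product of sulfate assimilation, went the other way (log2 -1.36).

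Sequences upstream of some of these genes hold letters bound by their known regulators, Cbf1 (CACGTG) and Met31 or Met32 (AAACTGTGG). Windows of 300 bases that end 101 bases before the start codon are shown 5' to 3' for the genes with the largest rises apart from ck2ts that hold a match. Capitals mark matches on either strand, in coordinates of genome build R64.
MET6 (chrV:342268-342567, minus strand): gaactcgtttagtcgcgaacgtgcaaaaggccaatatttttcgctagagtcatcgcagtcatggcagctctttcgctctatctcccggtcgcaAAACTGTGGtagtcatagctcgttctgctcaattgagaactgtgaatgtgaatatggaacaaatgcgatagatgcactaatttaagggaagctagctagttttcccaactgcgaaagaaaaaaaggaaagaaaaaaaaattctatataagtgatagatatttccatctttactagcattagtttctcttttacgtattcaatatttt
MET17 (chrXII:732142-732441, plus strand): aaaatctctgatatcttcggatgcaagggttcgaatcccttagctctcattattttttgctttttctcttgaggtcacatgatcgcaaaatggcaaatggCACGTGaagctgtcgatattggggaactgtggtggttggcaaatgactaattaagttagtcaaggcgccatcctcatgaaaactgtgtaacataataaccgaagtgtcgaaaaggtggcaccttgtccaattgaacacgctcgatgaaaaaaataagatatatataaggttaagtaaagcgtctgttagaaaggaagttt
MET3 (chrX:455839-456138, plus strand): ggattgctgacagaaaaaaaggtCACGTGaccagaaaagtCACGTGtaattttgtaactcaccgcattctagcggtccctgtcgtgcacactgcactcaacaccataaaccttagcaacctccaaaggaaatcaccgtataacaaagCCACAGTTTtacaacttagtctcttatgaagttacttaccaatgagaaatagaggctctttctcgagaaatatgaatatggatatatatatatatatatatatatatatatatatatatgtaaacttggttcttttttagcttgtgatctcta
MET3 holds 3 matches, 2 of CACGTG and 1 of AAACTGTGG on the opposite strand. MUP1 and MET13, also apart from ck2ts, hold neither motif in this window. CACGTG stood in 13 of the 19 upstream windows of the list (68.4%) and in 4.57% of all 5979 windows of protein-coding genes. It also stood in 14 of 25 windows of the phosphate regulon (56%), where 13 genes passed as lower and 5 as higher. AAACTGTGG stood in 5 of the 19 (26.3%) and in 0.636% of all. Among the 15 members that passed as higher, 10 held CACGTG (66.7%). This window was the second one looked at, and was chosen, like the genes shown, after values were seen. In the first, the 300 bases that end at the start codon, CACGTG stood in 7 of the 19 (36.8%) and 3.56% of all, and AAACTGTGG in 3 of the 19 and 0.518% of all. Of the members that passed as higher, 4 of 15 held CACGTG there, as did 10 of the 25 phosphate genes.

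Mating genes made a further group. Strains of mating type a express receptor and export genes of that type, and pheromone response genes respond to the partner's signal. STE2, the receptor for alpha-factor, was at 202 and 156 CPM in WT, 354 and 340 in spt6-7SA, against 96.9 and 105 in ck2ts. MFA1, a gene of a-factor itself, went from 20.4 and 18.8 CPM to 36.0 and 35.4 and was at 17.3 and 15.4 in ck2ts. STE6, the a-factor exporter, changed by 0.50. Of 7 a-cell genes tested, 4 passed as higher and none as lower. Pheromone response genes had 15 of 25 higher and 1 lower (median 0.39), 7 of them apart from ck2ts. FIG1, for cell fusion, was at 2.47 and 2.16 CPM in WT, at 7.93 and 7.68 in spt6-7SA, against 1.08 and 0.85 in ck2ts. FUS1, also for fusion, went from 10.4 and 6.30 CPM to 22.9 and 20.2. The alpha-cell genes STE3 and MF(ALPHA)1 were at 11.9 and 14.2 and at 1.03 and 1.05 CPM in WT, and at 24.7 and 25.2 and at 4.62 and 3.71 in spt6-7SA. In ck2ts they were at 19.5 and 22.9 and at 4.34 and 2.56. Of 10 genes of alpha cells and silent loci, 4 passed as higher in each mutant, and none was apart from ck2ts. BAR1, which encodes the protease that destroys alpha-factor, is deleted in all 3 strains and had 0 or 1 sense read per library.

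The pheromone response element TGAAACA, read by Ste12, stood in 16 of 25 upstream windows of pheromone response genes (64.0%), in 6 of 7 of a-cell genes (85.7%) and in 7.64% of all. The windows of the 3 largest rises apart from ck2ts that hold it are shown, with matches on either strand in capitals.
FUS1 (chrIII:71403-71702, plus strand): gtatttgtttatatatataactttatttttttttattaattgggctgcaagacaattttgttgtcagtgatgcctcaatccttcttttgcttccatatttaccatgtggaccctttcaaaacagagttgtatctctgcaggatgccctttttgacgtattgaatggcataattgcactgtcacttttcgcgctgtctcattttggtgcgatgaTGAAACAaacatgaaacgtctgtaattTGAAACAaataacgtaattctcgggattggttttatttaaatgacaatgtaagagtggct
STE2 (chrVI:82180-82479, plus strand): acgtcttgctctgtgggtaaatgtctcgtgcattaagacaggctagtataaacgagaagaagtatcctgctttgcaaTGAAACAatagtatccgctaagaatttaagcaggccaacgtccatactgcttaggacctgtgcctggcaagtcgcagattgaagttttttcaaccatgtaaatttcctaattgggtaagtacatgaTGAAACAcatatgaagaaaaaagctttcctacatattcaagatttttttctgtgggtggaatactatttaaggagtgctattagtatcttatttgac
MFA1 (chrIV:1384776-1385075, plus strand): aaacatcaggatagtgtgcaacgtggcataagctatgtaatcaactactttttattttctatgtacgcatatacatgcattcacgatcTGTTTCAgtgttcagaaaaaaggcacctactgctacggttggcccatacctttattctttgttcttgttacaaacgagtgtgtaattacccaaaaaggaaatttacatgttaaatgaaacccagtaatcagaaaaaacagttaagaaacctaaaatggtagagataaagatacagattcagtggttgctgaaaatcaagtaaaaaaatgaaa
FUS1 and STE2 hold 2 matches each and MFA1 holds 1, on the opposite strand. FIG1 holds none in this window. In the window that ends at the start codon, TGAAACA stood in 12 of 25 pheromone response genes (48%), 5 of 7 a-cell genes and 7.23% of all.

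Calls among vitamin and amino acid genes are given by pathway. Over all genes tested, 26.7% passed as higher and 24.1% as lower. Thiamine and vitamin B6 genes had 16 of 20 higher and none lower (median 0.99), against 14 higher and none lower in ck2ts. THI4, the thiazole synthase, went from 5.54 and 6.57 CPM to 18.6 and 18.4, and was at 14.7 and 13.2 in ck2ts. THI5, THI11 and THI13 are near-identical copies. Lysine synthesis had 5 of 9 higher and none lower. LYS1, its last enzyme, went from 22.9 and 32.0 CPM to 156 and 151, while LYS2, labelled lys2-128d in all 3 strains, did not pass (log2 0.09, adjusted p = 0.392). Arginine synthesis had 5 of 9 higher and 1 lower, with ARG4, argininosuccinate lyase, at log2 1.13. Leucine, isoleucine and valine synthesis had 1 higher and 3 lower of 11 (27.3% lower). Aromatic amino acids had 0 and 3 of 13 (23.1% lower), and both lower shares are near that over all genes. Histidine synthesis had 0 higher and 2 lower of 6, namely HIS1 and HIS3, the latter altered in the spt6-7SA strain (his3D200). NAD and nicotinic acid genes had 2 higher and 4 lower of 11. Genes of biotin synthesis and uptake, a list chosen after values were seen, had 4 of 5 higher. BIO2, the biotin synthase, was at 35.6 and 36.0 CPM in WT, at 85.6 and 83.8 in spt6-7SA, against 16.0 and 14.5 in ck2ts.

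Phosphate genes were more often lower than higher in each role, with 0 higher and 3 lower of 5 transporters, 3 and 7 of 13 phosphatases and polyphosphate genes, and 2 and 3 of 7 regulators. Of the transporters, PHO89, PHO84 and PHO91 passed as lower. PHO84, the high-affinity transporter, went from 2984 and 3139 CPM to 879 and 803, and was at 495 and 555 in ck2ts. SPL2, a regulator of phosphate uptake, changed by -2.23, and PHM6 and VTC3 by -1.63 and -1.18. PHO11 and PHO12, near-identical acid phosphatase genes and 2 of the 3 higher in their role, rose by 0.43 and 0.44 in spt6-7SA and changed by -1.92 and -1.93 in ck2ts. PHO11 was at 118 and 103 CPM in WT, 156 and 142 in spt6-7SA, against 28.2 and 30.1 in ck2ts. The regulon as a whole had 5 higher and 13 lower of 25 (median -0.26), against 2 higher and 18 lower in ck2ts (median -0.69).

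In the cell cycle lists, 4 of 17 G2/M genes passed as lower (23.5%, against 24.1% of all genes) and none as higher. The mitotic cyclin gene CLB1 was at 141 and 98.1 CPM in WT, 42.7 and 53.1 in spt6-7SA, against 83.8 and 95.9 in ck2ts (log2 -1.32, adjusted p = 0.00214 against WT). CLB2 changed by -1.01 and was apart from ck2ts as well. Core histone genes had 3 of 8 lower (37.5%, against 24.1% of all genes) and none higher, with HTA1 at -0.82 and HHT1 at -0.61. In ck2ts 7 of the 8 passed as lower, with a median log2 change of -0.69, against -0.33 in spt6-7SA. HHT1 and HHF1 are also part of the construct at ura3-52 that the spt6-7SA strain lacks. Nuclear genes of respiratory complexes II and III had 10 of 13 higher and none lower, led by SDH1, a succinate dehydrogenase subunit, at log2 1.80.

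Antisense reads, counted on the strand opposite to a gene and scaled by the sense library sizes, were higher in many more genes than lower. Among 5488 genes that overlap no annotated gene on the other strand and passed the count filter, 1753 passed as higher (31.9%) and 525 as lower (9.57%). The higher count was 1154 without WT replicate 1, and the lower count was 344 without WT replicate 2 and 252 and 288 without spt6-7SA replicate 1 or 2. The median log2 change was 0.33. When antisense counts were scaled among themselves, which removes that shift of 0.34, the counts were 1258 higher and 1122 lower, so 77.0% of the changed genes were higher with the first scaling and 52.9% with the second. The median antisense level of protein-coding genes was 0.71 and 0.81 antisense CPM (antisense reads on the sense library sizes) in WT, 1.05 and 1.08 in spt6-7SA, against 1.66 and 1.36 in ck2ts. In the 6035 genes without an overlap on the other strand, antisense reads made up 1.4% and 1.49% of the total for WT and 1.74% and 1.81% for spt6-7SA. The groups did not overlap, but the exact two-sided permutation test gave p = 0.333, the smallest that 2 against 2 allows.

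The largest antisense rise was in NUP145, a nuclear pore gene. NUP145 was at 0.125 and 0.173 antisense CPM in WT, at 6.0 and 6.86 in spt6-7SA, against 2.88 and 1.81 in ck2ts. Its log2 change was 5.45 (SE 0.31, adjusted p = 1.04e-08), and its sense reads changed by -0.82. SNF3, a glucose sensor, MUS81, a DNA endonuclease subunit, SIA1, YFL032W, MCM10, a replication factor, YME2 and SDL1 followed. MCM10 antisense went from 0.49 and 0.31 to 9.45 and 8.35. All 8 passed as higher in ck2ts too, as did 50.3% of all genes tested. YFL032W rose to 2.65 and 3.08 from 0.15 and 0.10, and stood at 0.37 and 0.18 in ck2ts. Sense reads passed as lower in 5 of these 8 genes and as higher in 1, against 24.1% and 26.7% of all genes tested.

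Antisense falls were led by HIS3, altered in the spt6-7SA strain (his3D200), at log2 -7.18. TMC1, HOL1, SAP190 and ASI2 came next, with smaller falls. HOL1, a transporter gene, went from 4.67 and 3.54 antisense CPM to 0.87 and 0.70 and was at 5.16 and 4.52 in ck2ts. Apart from ck2ts by the definition above, 275 genes had higher antisense (5.01%) and 224 lower (4.08%). Without spt6-7SA replicate 1 these were 156 and 105, and without replicate 2 they were 153 and 120. ECM23, a GATA-type factor gene, NTH1, the neutral trehalase, and SPS1, a kinase of spore formation, rose most of these that met the naming filters. NTH1 antisense went from 0.212 and 0.362 to 2.78 and 2.99 and was at 0.232 and 0.313 in ck2ts (log2 3.36, SE 0.32, adjusted p = 1.07e-06 against WT). Both spt6-7SA libraries lay far above the other 4.

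Measured against the sense reads of the same gene, antisense passed as higher in 1556 genes (28.4%) and as lower in 658 (12%). With antisense scaled among itself these numbers were 1188 and 1160, and without spt6-7SA replicate 1 the lower count was 377. NUP145, YFL032W, ATR1, SDL1 and YIL168W had the largest rises. ATR1 went from 0.49 and 0.33 antisense CPM to 6.44 and 6.17, beside the sense fall given above. In ck2ts the antisense of ATR1 was as high, at 8.60 and 5.90, without a fall in sense reads. HIS3, YGP1, MET32, RUF21 and YPL205C had the largest falls. YGP1, a stress-induced secreted glycoprotein gene, had antisense at 7.51 and 6.38 in WT and 1.52 and 1.86 in spt6-7SA, beside sense reads of 291 and 260 and of 1350 and 1054 CPM.

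The share of genes with higher antisense grew with the distance to the nearest gene on the other strand. It was 24.3% of 2501 genes within 300 bp, 32.8% of 1626 genes from there to 1000 bp and 45.0% of 1361 genes beyond. Antisense reads of genes of at least 1000 bp also lay differently. The column for the 5' part of each gene held 13.5% and 14% of them in WT and 17.3% in both spt6-7SA libraries, with 14.7% and 14.2% in ck2ts. The column for the 3' part held 17.3% and 17.5% in WT and 14.1% and 14% in spt6-7SA, with 13% and 14.7% in ck2ts.

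**Figure D4:**
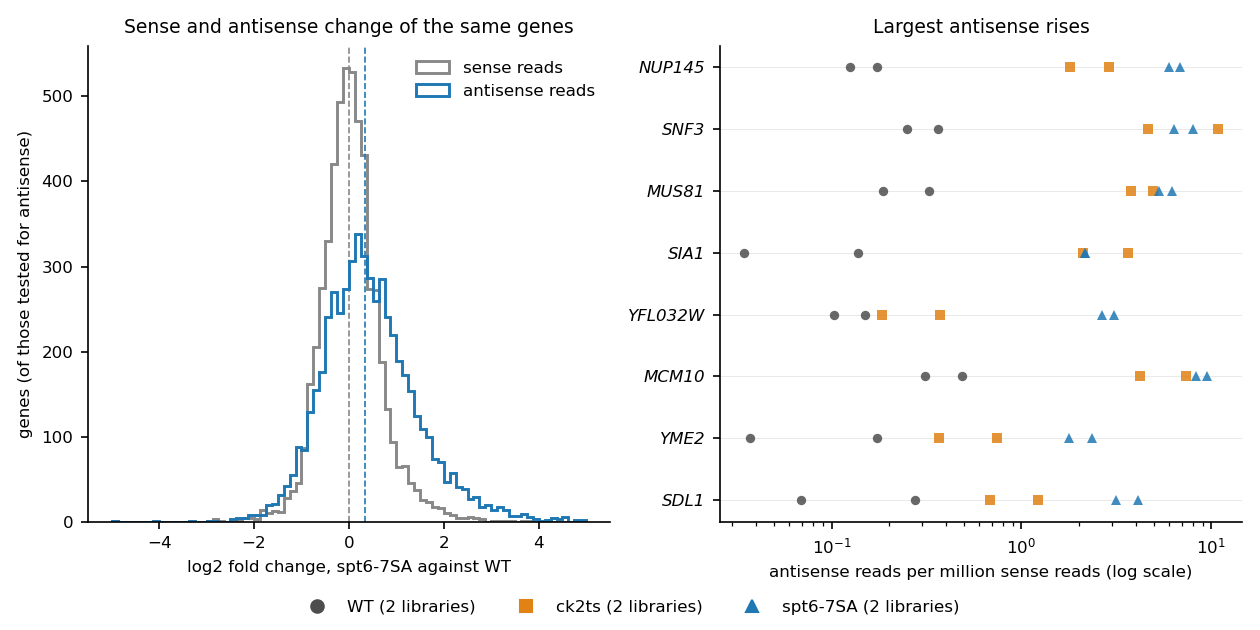
Left, distribution of log2 fold changes of spt6-7SA against WT for sense and antisense reads of the genes tested for antisense, clipped at 5 in either direction, with medians as dashed lines. Right, antisense CPM (log axis) in every library for the 8 largest antisense rises. The antisense distribution is shifted to higher values (median 0.33), and NUP145 goes from 0.125 and 0.173 in WT to 6.0 and 6.86.

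The deposited columns for the 5' and 3' parts of genes can reflect transcripts that begin inside a gene, since these lack the 5' part. The columns do not show where a transcript begins, and the causes of a gain of the 3' part were not tested. The extent of the parts is not given in the sources used here. In single-exon genes of 1000 to under 2000 bp, the 5' part held a median of 8.54% of sense reads and the 3' part 15.4%. Of 3414 genes of at least 1000 bp with enough reads, the 3' part gained on the 5' part in 25 (0.732%) and lost in 1 (0.0293%). Libraries with the same replicate number deviated together, and with the replicate number as a block these counts became 424 and 35. The median change over all 3414 genes was 0.16 on the log2 scale. Leaving out single libraries gave 3 to 36 gains, with 3 without WT replicate 1, 4 without WT replicate 2 or without spt6-7SA replicate 2, and 6 without spt6-7SA replicate 1.

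Across the 25 genes, the 3' part held a median of 66.7% and 68.2% of the reads of both parts in WT, 89.2% and 89.9% in spt6-7SA, against 74.0% and 75.8% in ck2ts. DAM1, beside SPT6, had the largest gain, from 81.8% and 83.7% to 98.3% and 99.1%. YGR117C on the other side of SPT6 was among the 25 as well, as was MRM1, which lies 237 bp from HIS3. ARO80, the activator of aromatic amino acid breakdown, went from 71.1% and 68.2% to 94.4% and 94.5% (log2 2.88, SE 0.22, adjusted p = 0.00292). MET22 went from 67.2% and 70.7% to 92.8% and 93.7%. CTA1, a peroxisomal catalase, MUS81 and SAY1, a sterol deacetylase, completed the 6 largest gains. TPO2, a polyamine transporter, was the only gene whose 3' part lost, from 62.9% and 65.3% to 37.6% and 40.7%, and in ck2ts it was at 32.9% and 38.2%.

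Sense reads of the 25 genes passed as higher in 6 and as lower in 12, against 26.7% and 24.1% of all genes tested. Antisense passed as higher in 20 of the 23 that were tested on that strand and as lower in none. Over all genes tested for antisense, 31.9% passed as higher and 9.57% as lower. In ck2ts the 3' part also gained in 5 of the 25, against 2.08% of all genes tested. Against ck2ts the 3' part passed as higher in 0.82% of all genes tested. In 11 of the 25 it did so with no call in ck2ts against WT, among them MET22, DAM1, YGR117C, PRP31, ATR1 and HEK2. PRP31, a splicing factor gene, was at 53.8% and 59.3% in WT, at 84.5% and 83.4% in spt6-7SA, against 65.1% and 62.9% in ck2ts. ATR1, which fell on the sense strand and rose on the antisense strand, was at 36.6% and 39.7%, at 58.4% and 63.4%, and at 36.5% and 39.6%. FLO8 and STE11, textbook genes for initiation inside a gene in spt6 mutants, did not pass for the parts, at log2 0.55 (adjusted p = 0.245) and 0.47 (adjusted p = 0.478). Their sense reads rose by 0.41 and 0.36. Of the 14 genes in that list, sense reads passed as higher in 7 and as lower in 2, against 8 and 2 in ck2ts.

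**Figure D5:**
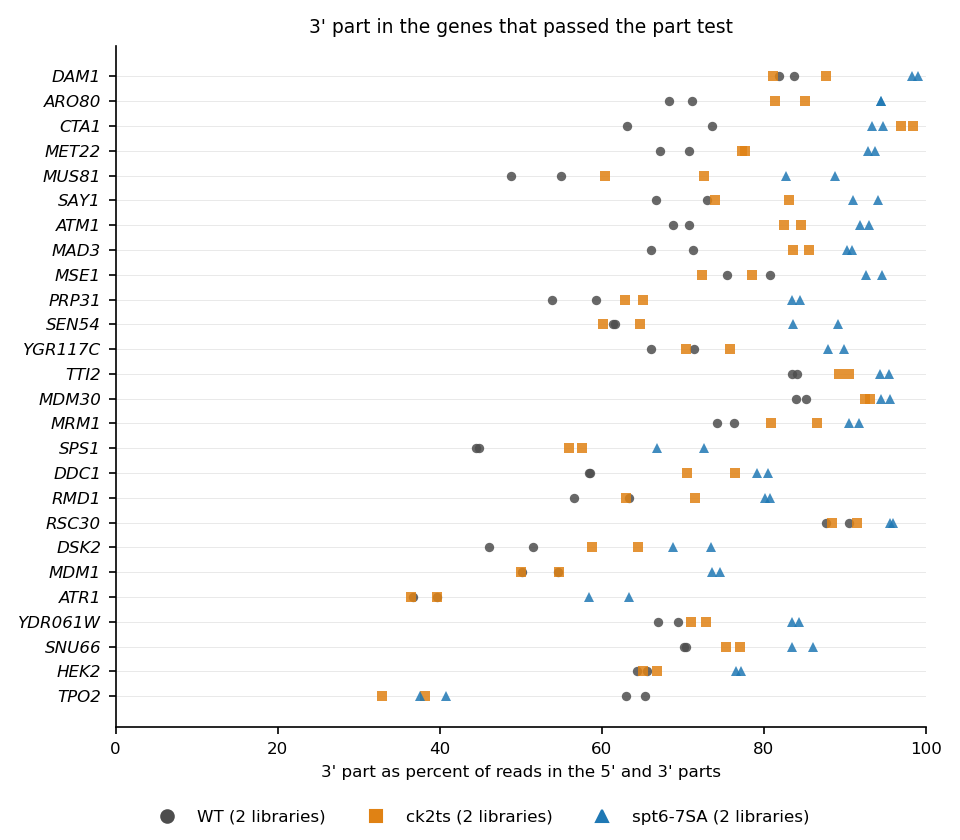
Reads in the 3' part as percent of reads in the 5' and 3' parts together, in every library, for the 26 genes that passed. The spt6-7SA libraries lie to the right of WT in all but TPO2, with DAM1 at 98.3% and 99.1% against 81.8% and 83.7% in WT.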

How the data were processed

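RNA of 6 libraries was isolated by hot phenol, cleared of ribosomal RNA and read as stranded libraries in single-end reads of 50 bases, per the labels' protocols. Reads were handled by the authors with Trimmomatic, BWA and SAMtools against build R64 and Ensembl release 77, per the submitters' processing notes, with tool versions not given in the sources used here. What was deposited is raw counts per exon for the sense and antisense strand, over all of it and over its 5' and 3' parts. Counts were summed here per gene (7126 genes), and 6048 genes matched the R64 annotation by locus tag, 6036 with the same start and end.

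Main tests used edgeR 4.0.16 (robust quasi-likelihood, TMM, filterByExpr with a minimum count of 10) in R 4.3.3, on all 6 libraries in 1 fit, with Benjamini-Hochberg adjustment and a threshold of 0.05. For antisense, the size factors of the sense counts were used, and only genes free of an opposite-strand overlap entered. Antisense against sense, and 3' against 5' part, were tested as interactions with library as a block, the latter for a length of 1000 bp or more and a mean of 20 or more reads in each part. Alternatives were DESeq2 1.42.0, other scalings and filters, fewer libraries and a replicate block. The main edgeR fits, but not the alternatives, were tested on simulated data. There the libraries varied independently, without the shared deviations described next.

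Libraries with the same replicate number, as the labels give it, deviated together. The correlations of replicate differences between groups were 0.35 to 0.48 for sense, 0.13 to 0.17 for antisense and 0.32 to 0.55 for the parts. The labels do not say what the number marks. Members and gene lists were chosen with earlier results of these data known, and the biotin list, the upstream windows and the sequences shown were chosen after values were seen. Genes named first were the largest changes that passed, without overlap of the groups' libraries, at 10 CPM or more for sense and 2 antisense CPM for antisense, leaving out strain-construction, Ty, tRNA, snoRNA and rRNA genes. Beside these, list members with the smallest p were named, and other genes were chosen after their values were seen. Of the list symbols, 3 matched no gene.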

Additional observations from a re-analysis of the deposited data

How the results depend on the processing

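Of 318 results for named genes, 269 kept their direction and call in every alternative run. LEU2, which did not pass (log2 -0.07), ranged from -0.20 to 0.0604 with a library left out, the sign changing without WT replicate 2. With a library left out, sense calls numbered 1185 to 1825 higher and 1055 to 1778 lower, antisense 1154 to 1890 and 252 to 626, antisense against sense 1041 to 1751 and 377 to 777, and the 3' part 3 to 36 gains and 0 to 4 losses. Apart from ck2ts these ranges were 198 to 351 and 221 to 407 for sense, and 153 to 333 and 105 to 276 for antisense. Without spt6-7SA replicate 1 the sense sets apart were 198 and 221, and without replicate 2 the higher one was 207. Without WT replicate 1 the higher set was 230. Antisense scaled on its own counts gave 1122 lower, and 1160 lower against sense. Without genes that have an opposite-strand gene within 300 bp, which leaves fewer genes tested, the counts were 1152 and 208 for antisense, 1015 and 319 against sense, and 85 lower apart from ck2ts. The antisense share differed by 0.331 percentage points, by 0.1495 over all genes (exact permutation p = 0.667) and by 0.483 without such neighbours (exact permutation p = 0.333). For the 3' part, a minimum of 2000 bp gave 6 gains and 0 losses, a mean of 100 reads gave 9 gains, sizes of each part gave 3 losses, WT and spt6-7SA libraries alone gave 3 losses, and the replicate block gave 424 gains and 35 losses. The causes were not tested. The block moved no other of these counts by over 1.5 times.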

Other observations

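Several gene groups not described above also moved. The list for meiosis and sporulation, which also holds the Hsp90 gene HSP82, had 14 of 27 tested members higher and 2 lower, HSP82 among the 14, with DMC1, the meiotic recombinase, at log2 1.36 and MEK1, a meiotic kinase, at 1.56. Genes for peroxisomes and fatty acid oxidation had 13 of 20 higher and none lower (median 0.44), among them PXA2, a transporter of long fatty acids, at 0.87. DNA damage genes had 12 of 20 higher and 1 lower, with RNR3, the damage-induced ribonucleotide reductase, at 1.14. Purine synthesis went mostly down, 10 of 17 lower and 3 higher, with ADE13 at -1.43, while IMD2 rose. CIT2, the peroxisomal citrate synthase and a target of the retrograde pathway, changed by 1.89, and all 8 genes of that list, chosen after values were seen, passed as higher.

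Of 81 snoRNA genes, 24 passed as lower (29.6%, against 24.1% of all genes) and none as higher. Of 135 nuclear tRNA genes 15 passed as lower, a smaller share (11.1%) than of all genes, and none as higher. The next 3 non-coding RNA genes were chosen after their values were seen. RUF21 was at 0.0997 and 0.207 CPM in WT and at 2.17 and 2.01 in spt6-7SA. HRA1 was at 0.137 and 0.121 CPM in WT and at 2.12 and 2.15 in spt6-7SA. ICR1, a long RNA that runs over the FLO11 promoter, went from 21.9 and 26.4 CPM to 38.0 and 40.0. Of 561 reading frames that the files list but the reference does not, 184 passed as higher (32.8%, against 26.7% of all genes) and 46 as lower (8.2%, against 24.1%).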
